A study of Mus musculus with 8 samples.

Results

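U6 is the small nuclear RNA (snRNA) at the catalytic centre of the spliceosome, and the 193 rows of the deposited small RNA table whose names begin with U6 followed by a dot are described here, out of 964 rows in all. They were taken by name with no filter on level, and the counterpart of the minor spliceosome, U6atac, was left out. The libraries came from granulocyte-monocyte-lymphoid progenitors (GMLPs) sorted from mouse bone marrow. The wild-type (WT) group has 4 libraries, and so has the iMLL-ENL group, from mice that the labels also call iME, named for the leukaemia fusion MLL-ENL. Both groups were cultured for 3 days with DOX before RNA was taken, so the WT cells met DOX as well. The promoter or cell type that drives the fusion, the age of the mice and whether replicates came from separate animals are not stated in the labels, so p-values measure only the scatter among these libraries, and part of that may be technical. The table analysed here holds small RNA rows only, so the sorted cell type was not checked against its markers.

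U6 is made by RNA polymerase III from a promoter that lies outside the transcribed stretch, and mammalian genomes carry a few active U6 genes among a much larger number of copies and pseudogenes, many left by retrotransposition. U6 enters the spliceosome base-paired to U4, is released when the spliceosome is activated, and then pairs with U2 and with the start of the intron. A short invariant box of U6 is the stretch that pairs with the intron next to its 5′ splice site.

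Copies of U6 differ little from each other, so a short read often cannot be tied to 1 row, and the rows are not independent. None of the 193 row names (0 matched) was found among the names of GENCODE M21 or the names and synonyms of the RefSeq gene table for GRCm38.p6, so no row is given a position or a sequence, and rows of working genes were not separated from rows of pseudogenes.

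The values are taken here as RPM, reads scaled to a library total of 1000000, although they are labelled as TPM. Each library's values are whole multiples of 1 step, which taken as 1 read is worth 0.108 to 0.169 RPM, and by this estimate the U6 rows held 4417 to 51023 reads in a library. No source used here states that a step is 1 read, so these read numbers were used for no test. A value of 3 reads corresponded to 0.323 to 0.507 RPM. The rows analysed here took 26.0% to 38.4% of the scale. Read positions and lengths were not analysed here, so whole U6 and fragments of it were not told apart. In bulk libraries such as these, fewer cells of a type and less RNA per cell cannot be told apart either. In its U6 rows WT replicate 2 differed from all 7 others, and results that rest on it are given with and without it.

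Summed over the 193 rows, U6 stood at 1187, 6627, 747 and 1005 RPM in the WT libraries, in the order of their replicate numbers, and at 1671, 2082, 2011 and 1769 RPM in the iMLL-ENL libraries. WT replicate 2 was above all other libraries, the other 3 WT libraries were below all 4 iMLL-ENL libraries, and the groups overlapped through WT replicate 2 alone. The WT mean was 2392 ± 2829 RPM and that of iMLL-ENL 1883 ± 195 RPM (SD, n = 4 each), a ratio of iMLL-ENL to WT of 0.787. The mean of the log2 sums, which gives WT replicate 2 less weight, ran the other way and was 0.27 higher in iMLL-ENL (two-sided exact permutation p = 0.771, 0.829 after Benjamini-Hochberg adjustment over 4 tests of U6 totals). Without WT replicate 2 the WT mean was 979.7 ± 221 RPM (SD, n = 3), the ratio of iMLL-ENL to WT was 1.92 and the log2 difference 0.96, with an exact permutation p of 0.0571, the smallest that 3 libraries against 4 allow. The direction of the difference with all libraries was not stable, since it was -0.13 after scaling by the trimmed mean of M-values (TMM) and -0.09 without WT replicate 3. With WT replicate 2 left out it was 0.56 with TMM scaling and 1.19 when each library was set to the same table total.

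U6 took 7.91%, 23.2%, 5.84% and 4.13% of the reads of all snRNA rows in the WT libraries and 7.42%, 6.002%, 9.30% and 6.23% in the iMLL-ENL libraries. This share is of reads, not of molecules, and it does not depend on the scaling of a library. The groups overlapped with and without WT replicate 2, with an exact permutation p of 0.829 (adjusted 0.829) over all libraries and 0.400 without that library, where the difference of iMLL-ENL minus WT changed from -3.02 to 1.28 percentage points. Of the reads of all rows analysed here U6 took 1.72% in WT replicate 2, 0.224% to 0.355% in the other WT libraries and 0.585% to 0.778% in the iMLL-ENL libraries.

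**Figure D1:**
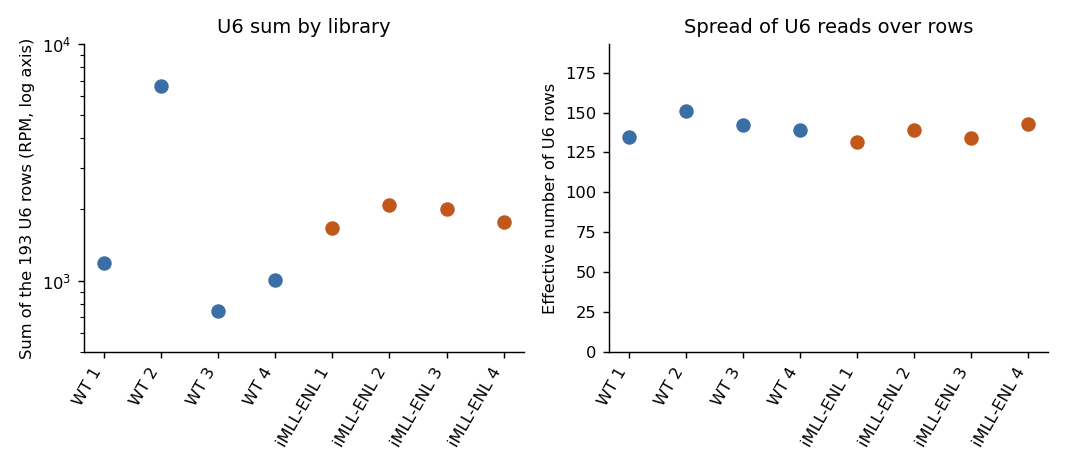
The left panel plots the sum of the 193 U6 rows in RPM on a log axis for each library, WT in blue and iMLL-ENL in orange, and the right panel the effective number of rows over which these reads were spread. WT replicate 2 lies at 6627 RPM, above the iMLL-ENL libraries at 1671 to 2082 RPM, and the effective number is 131 to 151 in every library.

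The U6 reads were spread thinly over many rows. The effective number of rows, which is 1 divided by the sum of squared shares and equals 193 if all rows were equal, was 135, 151, 142 and 139 in the WT libraries and 131, 139, 134 and 143 in the iMLL-ENL libraries. The groups overlapped (exact permutation p = 0.314, adjusted 0.629). U6.736-201, the row with the highest mean share, held 1.44%, 0.968%, 1.54% and 1.38% of the U6 sum in the WT libraries and 1.67%, 1.47%, 1.52% and 1.52% in the iMLL-ENL libraries. Its share was lowest in WT replicate 2. The group means differed by 0.213 percentage points, iMLL-ENL minus WT (exact permutation p = 0.114, adjusted 0.457). Without WT replicate 2 they differed by 0.0921 points (exact permutation p = 0.229). In no library did a U6 row hold more than 1.81% of the U6 sum, whereas the leading row of U1 held at least 6.40% of the U1 sum over its 42 rows and that of U2 at least 9.18% over its 30 rows, a comparison between families with different numbers of rows.

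The 12 most abundant U6 rows had means over the 8 libraries of 20.3 to 27.8 RPM, against a median of 9.59 RPM and a lowest mean of 1.99 RPM over all 193. The order among the first 8, U6.736-201, U6.207-201, U6.781-201, U6.828-201, U6.105-201, U6.876-201, U6.914-201 and U6.782-201, was not separated by the spread between libraries. This order includes WT replicate 2. In the iMLL-ENL libraries alone U6.281-201 had the highest mean of all U6 rows, 29.8 RPM against 29.0 RPM for U6.736-201, and in the other WT libraries U6.781-201 had the highest, 15.6 RPM. U6.736-201 stood at 17.1, 64.2, 11.5 and 13.9 RPM in the WT libraries and at 28.0, 30.6, 30.6 and 26.8 RPM in the iMLL-ENL libraries. U6.781-201 stood at 20.9, 71.3, 11.8 and 14.2 RPM in WT and at 24.4, 28.0, 25.1 and 21.3 RPM in iMLL-ENL. Both rows were highest in WT replicate 2, and in both the remaining WT libraries lay below every iMLL-ENL library. U6.864-201, U6.869-201 and U6.174-201 followed the same order of libraries at lower levels, from 54.9 to 58.5 RPM in WT replicate 2, from 7.61 to 12.9 RPM in the other WT libraries and from 16.8 to 23.4 RPM in iMLL-ENL.

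U6.281-201 was the exception among the 12. It stood at 9.94, 24.4, 6.59 and 11.5 RPM in the WT libraries and at 30.2, 30.1, 36.1 and 22.7 RPM in the iMLL-ENL libraries. WT replicate 2 lay above 1 of the iMLL-ENL libraries and below the other 3, so it did not lead this row. Its log2 fold change of iMLL-ENL over WT was 1.25 ± 0.35 (SE, limma adjusted p = 0.031), against 0.12 to 0.55 for the other 11, none of which passed the test.

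WT replicate 2 was the highest of the 8 libraries in 146 of the 193 U6 rows, 75.6%, against 14.4% of the 771 rows that are not U6. It was at least 5 times the mean of WT replicates 1, 3 and 4 in 132 U6 rows, 68.4%, against 1.17% of the other rows. The size of its excess in RPM separated the U6 rows into 2 kinds. In 135 rows WT replicate 2 lay at least 20 RPM above the mean of the other WT libraries, and in 58 rows it lay less far above, with 6 rows between 15 and 30 RPM and none between 15.8 and 20.8 RPM. The division was made after the values were seen, and it is used only as a description.

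The excess varied less in RPM than in fold. Over the 135 rows its median was 38.5 RPM, with quartiles of 35.7 and 42.9 RPM, while their mean level in the other WT libraries ran from 1.11 to 15.6 RPM. Of these rows, 53 had a mean under 5 RPM over the other 7 libraries and a median excess of 37.5 RPM, which put WT replicate 2 at a median of 18.3 times the other WT libraries. The other 82 had a median excess of 40.5 RPM, at a median of 6.23 times. The 8 most abundant U6 rows had an excess of 48.9 RPM (U6.105-201) to 56.6 RPM (U6.876-201), at 4.53 to 5.25 times. The ranking of these 8 includes WT replicate 2, which favours rows with a large excess. Their means in WT replicates 1, 3 and 4 were also high, at 12.6 to 15.6 RPM. So the excess was larger in the most abundant rows. With the 135 rows split at 5 RPM in the other 7 libraries, the median excess was only slightly greater in the higher rows, while the median fold was smaller. In the 58 remaining rows the median excess was 4.32 RPM and the median ratio 2.03. Rows of both kinds were found at high and at low levels, with 39 of the 58 at a mean of 5 RPM or more in the other 7 libraries.

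**Figure D2:**
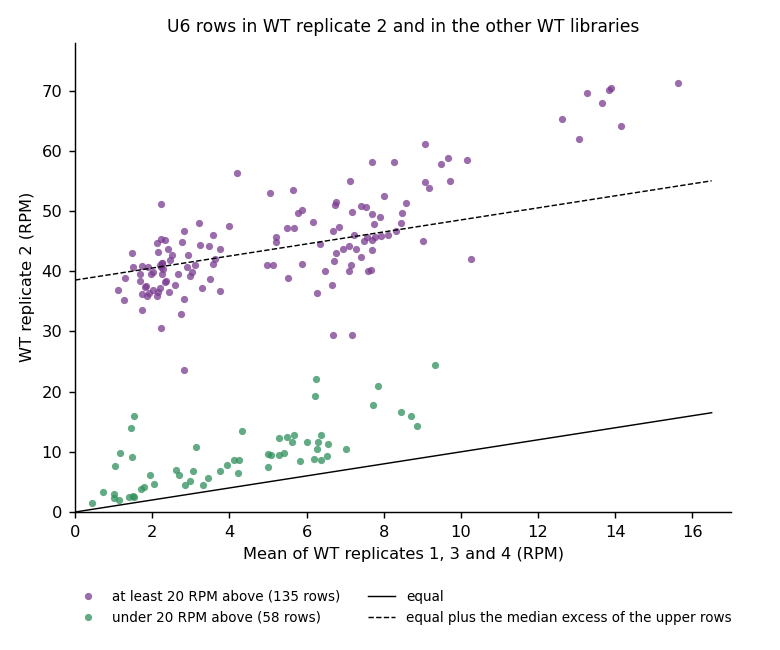
Each point is 1 of the 193 U6 rows, with the mean of WT replicates 1, 3 and 4 on the x axis and WT replicate 2 on the y axis, both in RPM. The 135 rows with an excess of at least 20 RPM (purple) form a band of their own, around the line of equality shifted by 38.5 RPM (dashed) at most levels and above it for the most abundant rows. The 58 other rows (green) lie nearer to equality, at a median of 2.03 times.

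The extreme rows show this directly. U6.894-201 stood at 2.80, 51.2, 2.20 and 1.68 RPM in the WT libraries and at 2.10, 3.02, 2.39 and 2.88 RPM in the iMLL-ENL libraries. U6.181-201 stood at 2.38, 44.7, 2.03 and 1.96 RPM in WT and at 1.44, 3.02, 2.27 and 2.51 RPM in iMLL-ENL. Apart from WT replicate 2, the libraries of the 2 groups overlapped in both rows. U6.256-201, U6.902-201 and U6.122-201 were alike, with 38.3 to 41.4 RPM in WT replicate 2, while the other 7 libraries held 0.98 to 2.89 RPM. None of these 5 rows reached the level filter of the main fit. In the limma fit of all 964 rows their log2 fold changes were -0.91 to -0.63 with adjusted p of 0.45 to 0.66, and without WT replicate 2 they were 0.06 to 0.39 with adjusted p of 0.12 to 0.81.

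Shares of the U6 sum moved accordingly in that library, which follows largely from how the sets were made. The 53 low rows with an excess held 31.8% of the U6 sum in WT replicate 2, 10.7% to 14.8% in the other WT libraries and 8.98% to 10.6% in iMLL-ENL. The 82 higher rows with an excess held 59.9% in WT replicate 2 and 61.4% to 63.2% in the other 7 libraries. The 58 rows without it held 8.26% in WT replicate 2 against 22.9% to 29.1% elsewhere. Across the 193 rows, Pearson's r between any 2 of the other 7 libraries was 0.876 to 0.975, and r between WT replicate 2 and each of them was 0.349 to 0.541. Within the 135 rows r of WT replicate 2 with the others was 0.712 to 0.777, and within the 58 rows it was 0.676 to 0.758. The 2 sets were divided by the difference between WT replicate 2 and the other WT libraries, so the division itself raises r within each. These are correlations across rows that share libraries and reads, and the rows are not independent.

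The authors' deposited table calls 33 U6 rows at a false discovery rate (FDR) under 0.05, of which 32 are lower and 1 is higher in iMLL-ENL. The 32 are 16.6% of the U6 rows, against 11.9% of all 964 rows called lower in the authors' deposited table, and they make up 27.8% of its 115 lower calls. All 32 belong to the 135 rows with an excess, and a high value in WT replicate 2 favours both. Their range was 33.6 to 51.2 RPM in WT replicate 2, while the other 7 libraries reached no more than 5.8 RPM. In 30 of the 32 the iMLL-ENL mean was above the mean of WT replicates 1, 3 and 4, and in 2 it was below. Over all U6 rows the iMLL-ENL mean was the higher of these in 191 of 193. None of the 32 passed the level filter here. In the limma fit of all rows without WT replicate 2, 1 of the 32 was called higher and 0 lower. Of all 964 rows, 46% were called higher in that fit and 11% lower. U6.112-201, named after its values were seen, is the row called higher in the authors' deposited table, at a log2 fold change of 1.88 and an FDR of 0.0056, where 4.56% of all rows are called higher. It stood at 0.42, 1.56, 0.51 and 0.42 RPM in WT and at 3.15, 4.10, 3.87 and 3.38 RPM in iMLL-ENL, close to the level of 3 reads in WT replicates 1, 3 and 4.

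With all 8 libraries few U6 rows passed the test here. In limma on log2(RPM + 1), 87 U6 rows had at least 4 libraries at 10 RPM and were tested among 633 rows, and 5 of them, 5.75%, rose and 0 fell, against 20.4% of all tested rows higher and 8.53% lower. The filter itself favours rows that are high in iMLL-ENL or in WT replicate 2, since 59 of the 87 had no library of WT replicates 1, 3 and 4 at 10 RPM. Without a filter 18 of the 193, 9.33%, rose and 0 fell, against 23.9% higher and 5.39% lower over all 964 rows. Unadjusted limma p was under 0.05 in 38 of the 193, a count not made over all rows, so it has no share beside it. The median log2 fold change of the 193 was 0.20, against 0.33 over all rows. The group means in RPM ran the other way, with a median ratio of iMLL-ENL to WT of 0.798 and a ratio above 1 in 59 of the 193 rows.

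The 5 called rows were U6.281-201, described above, and U6.285-201, U6.836-201, U6.274-201 and U6.739-201. U6.836-201 stood at 4.34, 8.70, 4.23 and 4.2 RPM in WT and at 12.1, 11.4, 12.4 and 10.3 RPM in iMLL-ENL (log2 fold change 1.03 ± 0.27, limma adjusted p = 0.026). U6.274-201 stood at 7.14, 9.61, 4.23 and 3.64 RPM in WT and at 12.5, 11.97, 12.4 and 13.0 RPM in iMLL-ENL (0.99 ± 0.30, limma adjusted p = 0.037). In both rows every iMLL-ENL library lay above every WT library, WT replicate 2 included. U6.285-201 (1.04 ± 0.33, limma adjusted p = 0.043) went from 3.55 to 11.6 RPM in WT to 12.3 to 17.4 RPM in iMLL-ENL, and U6.739-201 (0.73 ± 0.24, limma adjusted p = 0.047) from 4.57 to 8.44 RPM to 10.5 to 12.5 RPM. All 5 belong to the 58 rows with little excess in WT replicate 2, and a low value in that library favours both. These calls were not firm: 0 of the 87 rows were called after TMM scaling, where 2 had an unadjusted limma p under 0.05, and 0 were called when WT replicate 1 or iMLL-ENL replicate 1, 2 or 3 was left out. Only 1 was called without WT replicate 3 or iMLL-ENL replicate 4, and 2 without WT replicate 4. Over all tested rows the higher calls fell as well, from 129 to 46 without WT replicate 1 and 83 without WT replicate 3. They were 66 to 85 when 1 iMLL-ENL library was left out, 35 after TMM scaling and 154 without WT replicate 4. With WT replicate 2 left out all 87 rose, against 41.1% of tested rows higher and 15.5% lower, a count that the filter on these rows favours.

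**Figure D3:**
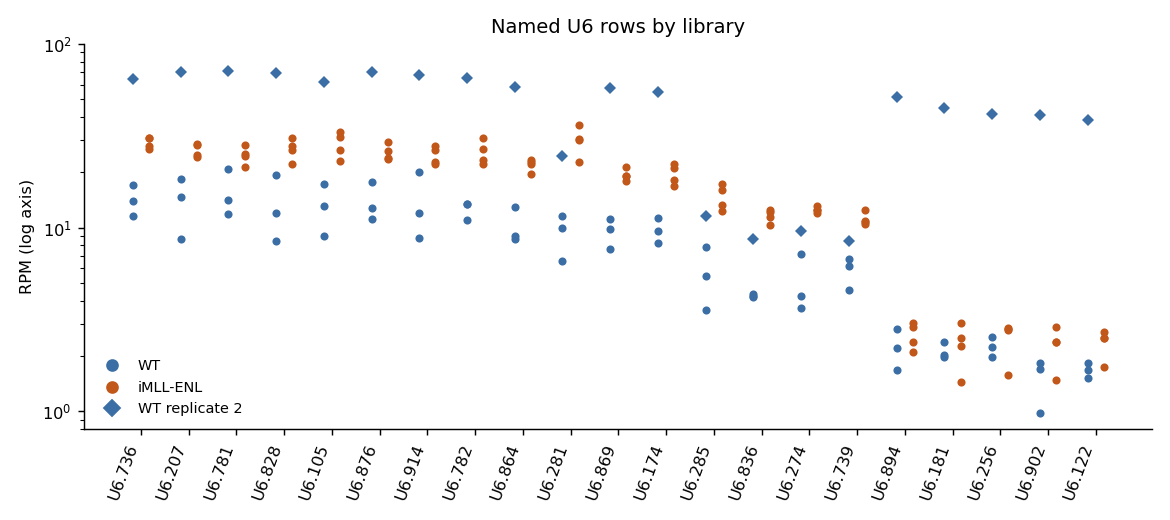
The 21 named U6 rows are on the x axis and each point is 1 library in RPM on a log axis, with WT in blue, iMLL-ENL in orange and WT replicate 2 as a diamond. The first 12 rows are the most abundant, the next 4 are called rows that are not among those 12, and the last 5, from U6.894 to U6.122, have WT replicate 2 at 38.3 to 51.2 RPM and the other libraries at 0.98 to 3.02 RPM.

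Without WT replicate 2 the U6 rows were higher in iMLL-ENL nearly throughout. The iMLL-ENL mean exceeded the mean of WT replicates 1, 3 and 4 in 191 of 193 rows, with a median ratio of 1.87 and quartiles of 1.65 and 2.11. In 150 rows, 77.7%, all 3 of these WT libraries lay below all 4 iMLL-ENL libraries, against 46% of all 964 rows, and in 0 rows they lay above, against 11.4% of all rows. With WT replicate 2 included, 20 rows, 10.4%, had groups that did not overlap, all with iMLL-ENL higher, against 29.3% of all rows with iMLL-ENL higher and 7.99% with it lower. These 20 were all among the 58 rows with little excess, which the split by WT replicate 2 favours, and 12 of them had been left out by the filter. In the limma fit of all 964 rows without WT replicate 2, 152 U6 rows, 78.8%, rose and 0 fell, against 46% and 11% of all rows. Other snRNA families rose in that fit too, with 5 of 5 U4 rows, 8 of 9 U5 rows and 22 of 30 U2 rows higher. Of U1 13 of 42 rows rose and of U6atac 1 of 3, while 1 row of U1 and 1 of U2 fell. The sums of iMLL-ENL were at 2.61 times WT for U4, 1.70 for U5, 1.53 for U1, 1.48 for U2 and 0.974 for U6atac. The median log2 fold change of the 193 rows was 0.81, against 0.45 over all rows. Near-identical copies can share reads, so these counts are not counts of independent genes.

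The share of rows called without WT replicate 2 moved with the scaling. After TMM scaling 90 of the 193 U6 rows, 46.6%, rose and 0 fell, against 23% and 19.6% of all rows. After quantile normalization 33 rose, 17.1%, which is near the 15.8% of all rows, and 7 fell, against 17.9% of all rows. With each library set to the same table total 172 rose and 0 fell, against 61.2% and 6.12%. The median log2 fold change of the U6 rows was above that of all rows in each of these fits, at 0.47 against 0.09 after TMM scaling, 0.22 against 0.07 after quantile normalization and 1.01 against 0.65 on the total of the rows.

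The rise without WT replicate 2 was not the same size in all rows. The 39 higher rows with little excess had a median ratio of iMLL-ENL to WT replicates 1, 3 and 4 of 2.11 (range 1.71 to 3.19), and in 38 of them the groups did not overlap. The 82 higher rows with an excess had a median ratio of 1.87 (1.52 to 2.50), with 77 not overlapping. The 53 low rows with an excess had a median ratio of 1.498 (0.911 to 2.34), with 19 not overlapping. That is a smaller share than the 46% of all 964 rows in which iMLL-ENL was higher without overlap. The 19 low rows with little excess had a median ratio of 2.54 (1.40 to 8.06), with 16 not overlapping. The highest ratio was that of U6.112-201, which rests on about 3 reads in each of these WT libraries and is imprecise. Differences between these sets were not tested, since the sets were made from the values.

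**Figure D4:**
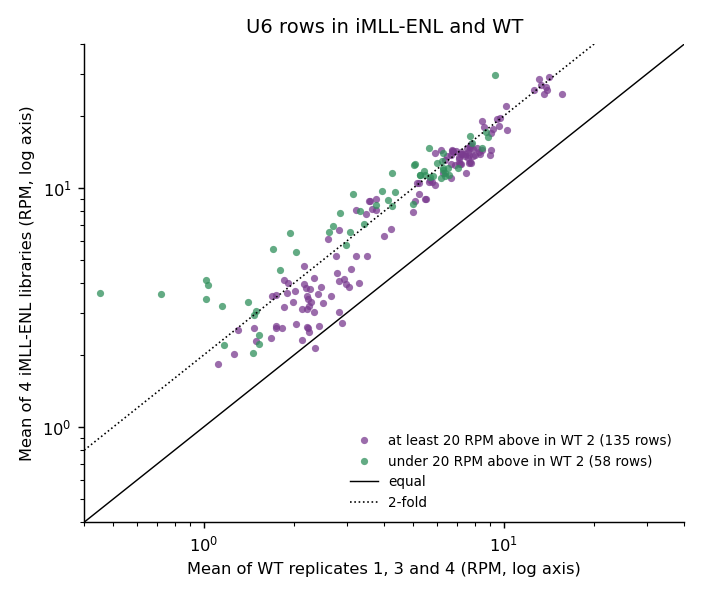
Each point is 1 U6 row, with the mean of WT replicates 1, 3 and 4 on the x axis and the mean of the 4 iMLL-ENL libraries on the y axis, both in RPM on log axes. In 191 of 193 rows the point lies above the line of equality, and the median ratio is 1.87, just under the dotted line of 2-fold.

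Shares of the U6 sum were also compared row by row. In 11 of the 193 rows the share was higher in all iMLL-ENL libraries than in all WT libraries and in 11 it was lower, 5.70% each. With WT replicate 2 left out the counts were 14 (7.25%) and 13 (6.74%). Over the 86 rows of U1, U2, U4 and U5, taken as shares of their own family, 17.4% were higher and 15.1% lower over all libraries, and 24.4% and 18.6% without WT replicate 2. These counts do not measure size. U6.281-201 held 0.837%, 0.368%, 0.882% and 1.14% of the U6 sum in the WT libraries and 1.81%, 1.44%, 1.79% and 1.28% in the iMLL-ENL libraries, with no overlap. U6.181-201 held 0.201%, 0.674%, 0.272% and 0.195% in WT and 0.0862%, 0.145%, 0.113% and 0.142% in iMLL-ENL, so its share was lower in iMLL-ENL with no overlap, WT replicate 2 left out or not.

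The snRNAs that work with U6 were set beside it. U4, the RNA that pairs with U6 and holds it inactive, summed to 39.9, 35.3, 39.7 and 45.8 RPM over its 5 rows in WT and to 84.6, 135, 106 and 110.4 RPM in iMLL-ENL, with WT replicate 2 at 0.845 times the mean of the other WT libraries. Both U4 rows past the filter rose in limma, in the fit where 20.4% of all tested rows rose. The ratio of the U6 sum to the U4 sum, which is a ratio of reads, was 29.7, 188, 18.8 and 21.9 in the WT libraries and 19.8, 15.4, 19.0 and 16.03 in the iMLL-ENL libraries. Without WT replicate 2 the groups still overlapped in this ratio.

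U5, the snRNA that holds the exon ends, moved with U6 in WT replicate 2 but less far. Its 9 rows summed to 1302, 2218, 724 and 909 RPM in WT and to 1757, 1827, 1707 and 1364 RPM in iMLL-ENL. WT replicate 2 was at 2.27 times the mean of the other WT libraries, where U6 was at 6.76 times. The ratio of U6 to U5 was 0.912, 1.03 and 1.11 in WT replicates 1, 3 and 4, 0.951 to 1.30 in iMLL-ENL and 2.99 in WT replicate 2. Of 7 tested U5 rows 1 rose and 0 fell, against 20.4% of all tested rows higher, and in the fit of all rows without WT replicate 2, 8 of 9 rose, against 46% of all rows.

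U6atac, which takes the place of U6 in the minor spliceosome, summed to 47.9, 136, 49.9 and 48.1 RPM over 3 rows in WT and to 45.2, 57.9, 44.0 and 42.2 RPM in iMLL-ENL. It too was highest in WT replicate 2, at 2.80 times the other WT libraries, but without that library iMLL-ENL was at 0.974 times WT, where U6 was at 1.92 times. The ratio of U6 to U6atac was 14.97 to 24.8 in WT replicates 1, 3 and 4 and 36.0 to 45.7 in iMLL-ENL, with no overlap, and 48.7 in WT replicate 2. U1 and U2, which bind the 5′ splice site and the branch site, were at 1.38 and 0.899 times the other WT libraries in WT replicate 2. Of 19 tested U2 rows 12 rose, and of 27 tested U1 rows 4 rose, where 20.4% of all tested rows rose, and 0 of either fell.

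**Figure D5:**
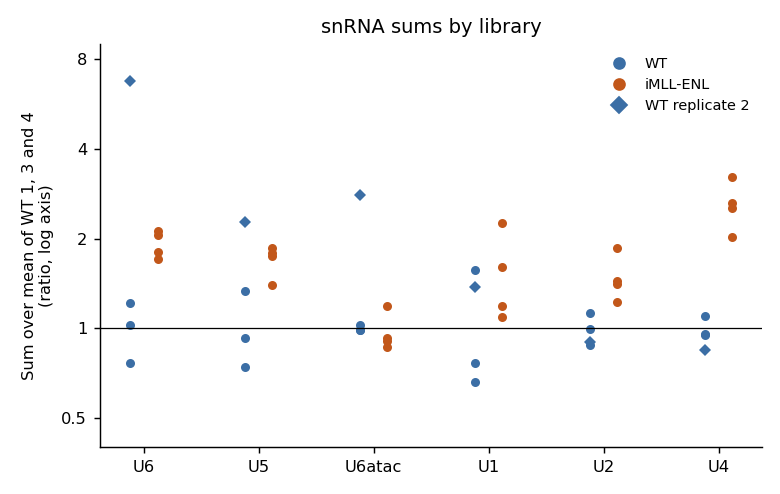
For U6, U5, U6atac, U1, U2 and U4 each point is the sum of the family's rows in 1 library divided by the mean of WT replicates 1, 3 and 4, on a log axis, with WT in blue, iMLL-ENL in orange and WT replicate 2 as a diamond. The diamond lies at 6.76 for U6, 2.80 for U6atac and 2.27 for U5, and at 0.845 for U4, below the other WT libraries.

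Of the box C/D snoRNAs that guide 2′-O-methylation of U6, 5 of the 6 listed were found in the table, and Snord9 was not matched. SNORD10.1-201 stood at 321, 394, 283 and 478 RPM in WT and at 589.8, 626, 704 and 1079 RPM in iMLL-ENL. Its groups did not overlap, as in 29.3% of all rows with iMLL-ENL higher. It rose by 1.01 ± 0.24 on the log2 scale in the fit of all rows (limma adjusted p = 0.018), where 23.9% of all rows rose. SNORD94.1-201 (0.60, limma adjusted p = 0.091), Snord7-201 (0.53, 0.27), Snord8-201 (0.39, 0.26) and Snord67-201 (0.06, 0.89) did not pass the test there. Without WT replicate 2, SNORD94.1-201 (0.68, limma adjusted p = 0.016) and Snord7-201 (0.83, 0.0060) passed it too, in a fit where 46% of all rows rose. SNORD10.1-201 was at 1.09 times the other WT libraries in WT replicate 2, so this guide did not share the excess of U6. Snord7-201 was at 2.42 times, with 14.8 RPM in WT replicate 2 and 4.23 to 7.56 RPM in the other WT libraries.

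U6atac is also made by RNA polymerase III from an outside promoter. Of the 5 other entries in a list of such RNAs, 2 were matched in the table, the Y RNAs and the selenocysteine tRNA, and both were lower in WT replicate 2 than in the other WT libraries on average. The Y RNAs, bound by the Ro60 protein, were at 0.772 times the other WT libraries in WT replicate 2. Of their tested rows 7 of 7 rose in iMLL-ENL, where 20.4% of all tested rows rose. tRNA88-SeCTCA, which reads the selenocysteine codon, was at 0.665 times in WT replicate 2, and its log2 fold change was 0.01 in the fit of all rows (limma adjusted p = 0.97).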

How the data were processed

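The table holds 1 value per library for 964 rows from 8 libraries made with the QIAseq miRNA kit after total RNA purification, per the labels' protocols. The genome build was GRCm38, per the submitters' processing notes. The aligner, counting program, annotation, filters and treatment of reads that match several copies are named neither in the labels nor in the headers used here, and a read shared by many U6 copies could be counted at 1 or several rows. The deposited values are taken as RPM, reads scaled to a library total of 1000000, although the table is labelled as TPM. Of a library's values, 99.79% to 100% were whole multiples, within 0.0055 RPM, of 1 step shared by all rows. The total of 1000000 was assumed and could not be checked from these rows. The deposited table also has the authors' log2 fold change, mean log2 CPM, p-value and FDR, per the file headers.

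Rows were tested with limma 3.58.1 (R 4.3.3, with statmod 1.5.0) and a trended, robust prior variance on log2(RPM + 1) values, over rows with at least 4 libraries at 10 RPM, two-sided, with Benjamini-Hochberg adjustment over all tested rows at 0.05. Fold changes on this scale understate the change of low rows. No covariate was used. The script was tested on simulated data. U6 totals were compared with exact permutation tests (scipy 1.17.1), where 4 against 4 libraries allow no p below 0.0286. Sequences are not reported here. Named rows were the 12 most abundant, the called rows, and the 5 with the highest ratio of WT replicate 2 to the highest other library (both plus 1) among those reaching 10 RPM. The members and lists were chosen with earlier results of these data known. The values are not counts, so no count model was run. The alternatives were other scalings, filters and pseudocounts, a replicate block, quality weights and leaving out each library.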

Additional observations from a re-analysis of the deposited data

Results flagged for a closer look

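In groups of 4, a library was singled out where its gap to the nearest other, divided by the range of the group, was above 0.829, a limit that chance passes in about 1 of 20 groups. WT replicate 2 was singled out for the U6 sum (0.925) and for the U6 percent of the table rows (0.913). Among the abundant rows it was singled out for U6.736-201 (0.894), U6.207-201 (0.842), U6.781-201 (0.848), U6.105-201 (0.844), U6.876-201 (0.888), U6.782-201 (0.955), U6.864-201 (0.915), U6.869-201 (0.931) and U6.174-201 (0.935). The same held for the rows with the largest ratios, U6.894-201 (0.977), U6.181-201 (0.990), U6.256-201 (0.985), U6.902-201 (0.979) and U6.122-201 (0.992), which were chosen for their level in that library. It also held for the called row U6.836-201 (0.969) and for the U6atac sum (0.977). These rows share reads and a library, so they are not separate signs. In the iMLL-ENL group replicate 1 was lowest for U6.256-201 (0.937), a row at a few RPM, and replicate 4 was highest for SNORD94.1-201 (0.895).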

How the results depend on the processing

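The 5 calls among U6 rows became 18 without a filter, 0 after TMM scaling, 1 after quantile normalization, 19 with equal table totals, 78 with array quality weights and 3 with the replicate block, and stayed at 5 with a pseudocount of 10. Of all tested rows, 129 of 633 rose and 54 fell as reported, 230 and 52 of 964 without a filter, 35 and 129 after TMM scaling, 70 and 63 after quantile normalization, 251 and 27 with equal table totals, 322 and 135 with quality weights and 151 and 42 with the block. Leaving out 1 library gave 0 to 87 calls, the 87 without WT replicate 2. Over all tested rows these fits gave 46 to 260 higher calls, the 260 without WT replicate 2. In alternatives chosen after seeing the data, without a filter and without WT replicate 2, the calls were 152, 90 after TMM scaling, 40 after quantile normalization and 172 with equal table totals. The cause of these shifts was not tested, other than that WT replicate 2 was left out. The log2 difference of the U6 sum was -0.13 after TMM scaling, -0.087 to 0.96 without 1 library, lowest without WT replicate 3, 0.55 with equal table totals and 0.38 over the 87 rows alone. Without WT replicate 2 it was 0.56 after TMM scaling and 1.19 with equal table totals. The U6 percent of snRNA differed by -5.07 to 1.28 points without 1 library, and taken of all table rows by 0.0265 points. The effective number of rows differed by -7.41 to -1.94 without 1 library and by 1.69 over the 87 rows. The difference in the share of U6.736-201 was 0.0921 to 0.283 points. The log2 fold changes of 6 abundant rows turned after TMM scaling: U6.207-201 (-0.018), U6.781-201 (-0.26), U6.876-201 (-0.090), U6.914-201 (-0.074), U6.869-201 (-0.026) and U6.174-201 (-0.034). After quantile normalization those of U6.781-201 (-0.23), U6.876-201 (-0.051), U6.914-201 (-0.065) and U6.869-201 (-0.0047) turned. Without 1 library U6.207-201 had -0.020 to 0.94, U6.781-201 -0.17 to 0.66 and U6.914-201 -0.057 to 0.88, the lowest without WT replicate 3 and the highest without WT replicate 2, and U6.781-201 had -0.091 without WT replicate 4. Same-numbered libraries deviated together for replicates 1, 2 and 4 (r = 0.389, 0.286 and 0.420) but not for replicate 3 (-0.133), and those of replicates 1, 2 and 4 correlated best with their own number, a hint from the data, so the numbers were not taken to pair the libraries. With the replicate block 3 rows were called, U6.274-201 (limma adjusted p = 0.058) and U6.739-201 (0.085) no longer, and the U6 sum had an exact sign-flip p of 0.75, where 4 pairs allow no p below 0.125. The count model on recovered reads was not run.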
